A study of Mus musculus with 8 samples.

Results

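Irf8, Bcl6, Zbtb7a, Id1, Id2 and Id3 encode nuclear proteins that hold back osteoclast formation or the transcription factors that drive it. Their RNA was followed in osteoclast precursor cells cultured with or without extracellular peroxiredoxin 1 (PRDX1) and the osteoclast-inducing cytokine RANKL. They were taken by their symbols, and all 6 were found among the 25124 genes of the expression table. All 6 also passed the filter on low values that left 11700 genes to test. PRDX1 raised Id1, Id2 and Id3 in cells without RANKL, and raised Id1, Irf8, Id3, Id2 and, less firmly, Bcl6 in cells with RANKL. RANKL on its own lowered Irf8 and Id1, and no comparison called a change of Zbtb7a.

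Osteoclasts form from cells of the macrophage lineage when RANKL, acting through NF-kappaB and c-Fos, switches on NFATc1, the master transcription factor of the lineage. Precursors hold this switch back with repressors. IRF8 is an interferon regulatory factor that binds NFATc1 and restrains its activity, and BCL6 is a BTB zinc finger repressor that sits on osteoclast genes. ZBTB7A, also called LRF, is a BTB zinc finger protein with stage-dependent roles in the lineage. The ID proteins have a helix-loop-helix domain but no basic DNA-binding region, so that they occupy E proteins and related factors and keep them off DNA. During differentiation the repressor BLIMP1, encoded by Prdm1, and the DNA methyltransferase DNMT3A lower the expression of such brakes.

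RNA was sequenced from bone marrow-derived precursor cells in 4 groups of 2 cultures, called no PRDX1 + no RANKL, PRDX1 + no RANKL, no PRDX1 + RANKL and PRDX1 + RANKL. Every culture, the controls included, received 30 ng/mL M-CSF, the survival factor of the macrophage lineage, and RANKL was given at 100 ng/mL and PRDX1 at 200 nM for 48 h. The sample labels name C57BL/6 mice aged 6 to 8 weeks as the donors of the marrow, whereas the study's culture methods name ICR mice, and the study's list of materials gives wild-type mice of both strains. The PRDX1 was a recombinant His-tagged protein made in E. coli and passed over an endotoxin removal step. No sequenced group received a bacterial control protein or heat-treated PRDX1. In its osteoclast formation assay, not in the sequenced cultures, the study did test heat-inactivated PRDX1 and reported that it did not inhibit. No source says that the 2 cultures of a group came from separate animals, so p-values measure the spread between these cultures, which may be technical. In bulk RNA, fewer cells of a type and less RNA per cell cannot be told apart.

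Values are FPKM, reads scaled to transcript length and library total, so that levels can be set beside each other between genes. The libraries held 27284654 to 46171827 reads in total. The members rested on 212 reads at the fewest (Id1, no PRDX1 + RANKL, replicate 1) and 8613 at the most (Id2, PRDX1 + no RANKL, replicate 2). The 2 replicates of a group were further apart than read sampling alone would put them: chi-square over genes, divided by its degrees of freedom, was 4.71 to 9.58. Macrophage markers were present in all libraries: the 8 markers, Csf1r and Lyz2 among them, summed to 9857 to 17485 FPKM. Lyz2 carried the sum, with group means from 8597 FPKM (no PRDX1 + RANKL) to 14117 (no PRDX1 + no RANKL). In the same order of groups Csf1r had means of 266 and 508 FPKM, Fcgr1 8.49 and 113, and Mertk 4.56 and 21.6. The 8 osteoclast markers summed to 34.4 to 35.3 FPKM in no PRDX1 + no RANKL, 80.3 to 84.7 in PRDX1 + no RANKL, 1825 to 1920 in no PRDX1 + RANKL and 234.9 to 242.5 in PRDX1 + RANKL.

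The start regions of 5 of the 6 members were read from RefSeq on GRCm38.p6, the assembly also called mm10, as the 250 bases before the start of the deposited transcript; Id1 had no entry. Those of Irf8, Bcl6, Id2 and Id3 are printed, since these are the members with an entry that were called in at least 1 comparison, to show which motif letters each carries. Capitals mark the matches to 5 motifs searched on both strands: GAS (TTCNNNGAA), the site form bound by STAT proteins and, in related forms, by BCL6; ISRE (GAAA, any 2 bases, GAAA), the interferon response form; the NF-kappaB motif by its consensus; GGCGCC, a form bound by BMP-activated SMAD proteins; and TGACG, part of the cyclic AMP response element. No matches overlapped. A match is a description of letters, not a bound site.
Irf8, chr8:120736108-120736357, plus strand: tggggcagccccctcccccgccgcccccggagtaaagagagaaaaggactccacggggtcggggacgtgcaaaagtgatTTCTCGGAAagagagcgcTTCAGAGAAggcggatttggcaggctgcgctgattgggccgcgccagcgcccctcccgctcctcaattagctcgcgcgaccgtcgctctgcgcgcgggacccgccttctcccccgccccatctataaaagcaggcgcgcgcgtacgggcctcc
Bcl6, chr16:23988853-23989102, minus strand: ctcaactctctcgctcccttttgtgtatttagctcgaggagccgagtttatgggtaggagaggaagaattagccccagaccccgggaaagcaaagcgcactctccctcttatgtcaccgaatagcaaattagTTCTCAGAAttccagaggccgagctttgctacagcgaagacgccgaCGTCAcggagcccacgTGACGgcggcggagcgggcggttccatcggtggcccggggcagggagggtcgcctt
Id2, chr12:25096093-25096342, minus strand: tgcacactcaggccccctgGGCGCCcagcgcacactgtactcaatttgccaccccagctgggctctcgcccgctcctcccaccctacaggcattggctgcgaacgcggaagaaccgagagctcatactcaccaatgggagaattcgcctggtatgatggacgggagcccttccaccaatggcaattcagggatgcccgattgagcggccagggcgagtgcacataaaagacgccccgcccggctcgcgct
Id3, chr4:136143572-136143821, plus strand: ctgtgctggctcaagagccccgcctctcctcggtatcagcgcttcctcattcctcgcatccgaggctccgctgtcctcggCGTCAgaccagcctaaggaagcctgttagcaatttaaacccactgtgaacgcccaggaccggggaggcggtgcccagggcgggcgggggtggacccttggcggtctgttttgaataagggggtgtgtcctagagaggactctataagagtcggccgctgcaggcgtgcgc

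Irf8 held 2 GAS matches, at -171 to -163 and -153 to -145, counted back from the base before the transcript start. Bcl6 held 1 GAS match at -118 to -110 and TGACG, once on each strand, at -72 to -68 and -56 to -52. RefSeq held a second start region for each of these genes, away from the deposited transcript's start. That of Irf8 (chr8:120738389-120738638) held 0 GAS matches and that of Bcl6 (chr16:23981284-23981533) 3, so that the counts depend on the start used. Of 32851 mouse start regions of the same length, 7.02% held GAS and 17.8% TGACG. Id2 held GGCGCC at -231 to -226, which 9.59% of the start regions held, and Id3 held TGACG at -170 to -166. Zbtb7a (chr10:81136021-81136270, plus strand, not printed) held an NF-kappaB match at -56 to -47, found in 7.25% of start regions, and GGCGCC at -17 to -12. ISRE, found in 2.98% of start regions, matched in none of these 5 windows, which says only that those letters are absent there.

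Each gene was tested in 1 limma model of the 4 groups on log2(FPKM + 1), and was called when its Benjamini-Hochberg adjusted p was under 0.05 and its fold change at least 1.5. Fold changes are on the log2(FPKM + 1) scale, which understates those of low genes. PRDX1 without RANKL raised 3 of the 6 members, where 3.8% of all genes tested were called higher and 1.99% lower. Lower calls among the members numbered 0 in limma, 0 with voom on recovered reads, and 0 at an unadjusted p under 0.05. PRDX1 with RANKL raised 5 of 6, or 4 in the 3 of 16 alternatives that did not call Bcl6, against 6.03% of all genes higher and 4.17% lower, and lower calls again numbered 0 by the same 3 counts. RANKL without PRDX1 lowered 2 of 6, against 9.96% of all genes lower and 11.8% higher, so that for this comparison a change was common among all genes. RANKL with PRDX1 lowered 3 of 6 in limma and 2 with voom, which did not call Id2, against 3.98% lower and 4.52% higher. The split of all calls turned with scaling in both RANKL comparisons. Without PRDX1 it was 1383 higher and 1165 lower as deposited, 1088 and 1322 after quantile normalization, and 1153 and 1302 after upper quartile scaling. With PRDX1 it was 529 and 466, 457 and 563, and 466 and 542 in the same order. In both RANKL comparisons, higher calls numbered 0 in limma and voom and 1 at an unadjusted p under 0.05.

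Set against untreated cells, cells with both agents had 3 members higher and 1 lower, where all genes had 7.5% higher and 5.34% lower. Cells with RANKL alone had 5 members lower than cells with PRDX1 alone, against 10.7% of all genes lower and 14.3% higher. Here too the split of all calls depended on scaling, with 1677 higher and 1255 lower as deposited, 1231 and 1466 after quantile normalization, and 1217 and 1484 after upper quartile scaling. The effect of PRDX1 depended on RANKL, by the interaction term, for 3 members, 1 in the positive and 2 in the negative direction, against 4.5% and 4.35% of all genes. Comparisons that share a group share its libraries and are not independent.

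**Figure D1:**
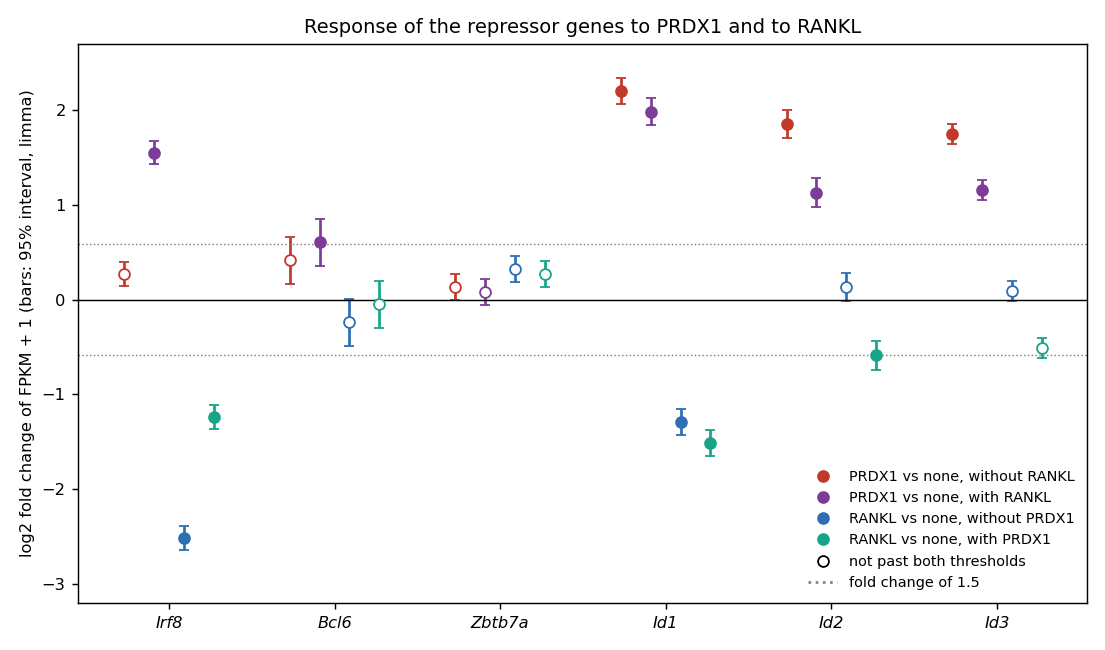
Log2 fold changes of FPKM + 1 (y axis) of the 6 repressor genes (x axis) in the 4 comparisons that change 1 agent; bars are 95% intervals from limma, filled points were called, open points were not, and dotted lines mark a fold change of 1.5. Id1, Id2 and Id3 lie above the upper line in both PRDX1 comparisons, Irf8 in the comparison with RANKL, and all Zbtb7a points lie between the lines.

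In cells without RANKL the Id genes gave the largest increases with PRDX1 of the members. Id1 (chr2:152736251-152737410, plus strand, 2 exons), the member of the family best known as an immediate target of BMP signaling, stood at 21.6 and 23.6 FPKM in no PRDX1 + no RANKL. It stood at 106 and 110 FPKM in PRDX1 + no RANKL, 8.36 and 8.96 in no PRDX1 + RANKL, and 36.5 and 38.0 in PRDX1 + RANKL. The 4 groups did not overlap, and the order ran from RANKL alone, lowest, through untreated cells and cells with both agents to PRDX1 alone, highest. PRDX1 raised Id1 4.61-fold without RANKL (log2 fold change 2.21 ± 0.06 SE, adjusted p = 1.99e-08 in limma), the increase ranked 16 among 11700 genes. With RANKL it raised Id1 3.96-fold (1.99 ± 0.06, adjusted p = 1.33e-08). RANKL lowered Id1 both without PRDX1 (-1.29 ± 0.06, adjusted p = 6.33e-08) and with it (-1.51 ± 0.06, adjusted p = 9.75e-08). The interaction for Id1 was -0.22 with a 95% interval of -0.42 to -0.02, and its adjusted p of 0.106 missed the threshold.

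Id2 (chr12:25093799-25096092, minus strand, 3 exons), an ID protein known for its part in lymphoid and dendritic cell development, was the most abundant member in every group. Its levels were 52.7 and 58.6 FPKM in no PRDX1 + no RANKL, 215 and 193 in PRDX1 + no RANKL, 63.1 and 59.3 in no PRDX1 + RANKL, and 136 and 135 in PRDX1 + RANKL. Untreated and RANKL cultures lay close together, while the PRDX1 cultures lay far above them and did not overlap each other. PRDX1 raised Id2 3.62-fold without RANKL (1.85 ± 0.07, adjusted p = 7.38e-08) and 2.19-fold with RANKL (1.13 ± 0.07, adjusted p = 8.82e-07). RANKL alone left Id2 at 0.14 on the log2 scale (95% interval -0.01 to 0.29, adjusted p = 0.104), which was not called. RANKL on top of PRDX1 lowered Id2 by a log2 fold change of -0.59 ± 0.07 (adjusted p = 9.49e-05), a value close to the fold threshold. It became -0.51 without replicate 1 of PRDX1 + no RANKL and -0.58 without replicate 2 of PRDX1 + RANKL, and was then not called.

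Id3 (chr4:136143822-136145392, plus strand, 3 exons), the third ID protein of the set, followed Id2 closely. It stood at 38.8 and 39.9 FPKM in no PRDX1 + no RANKL, 133 and 138 in PRDX1 + no RANKL, 42.1 and 41.7 in no PRDX1 + RANKL, and 96.8 and 93.0 in PRDX1 + RANKL. As with Id2, the untreated and RANKL cultures differed little and both PRDX1 groups were above them. PRDX1 raised Id3 3.37-fold without RANKL (1.75 ± 0.05, adjusted p = 1.99e-08) and 2.23-fold with RANKL (1.16 ± 0.05, adjusted p = 5.84e-08). RANKL alone gave 0.09 (95% interval -0.02 to 0.19, adjusted p = 0.128), and RANKL with PRDX1 gave -0.51 ± 0.05 (adjusted p = 2.39e-05), a fold of 0.704 that did not reach the fold threshold. Across the 8 libraries the ratio of Id3 to Id2 FPKM stayed between 0.617 and 0.737.

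The 3 Id genes together summed to 113 and 122 FPKM in no PRDX1 + no RANKL, 453 and 440.5 in PRDX1 + no RANKL, 114 and 110 in no PRDX1 + RANKL, and 269 and 266 in PRDX1 + RANKL. The sum was thus nearly the same in untreated and RANKL cultures, but its composition was not. Id1 made up 19.1% and 19.4% of the sum in untreated cells and 7.36% and 8.15% in RANKL cells. It made up 23.3% and 25.0% with PRDX1 alone and 13.55% and 14.3% with both agents. The ratio of Id2 to Id1 was 2.43 and 2.48 in untreated cells and 7.55 and 6.61 with RANKL. With 2 cultures against 2 an exact permutation test cannot go below p = 0.333, so these ratios are given without a test. The fourth gene of the family, Id4, had 0 to 2 reads in a library, under the floor of 3 reads, and was not detectable at this depth.

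**Figure D2:**
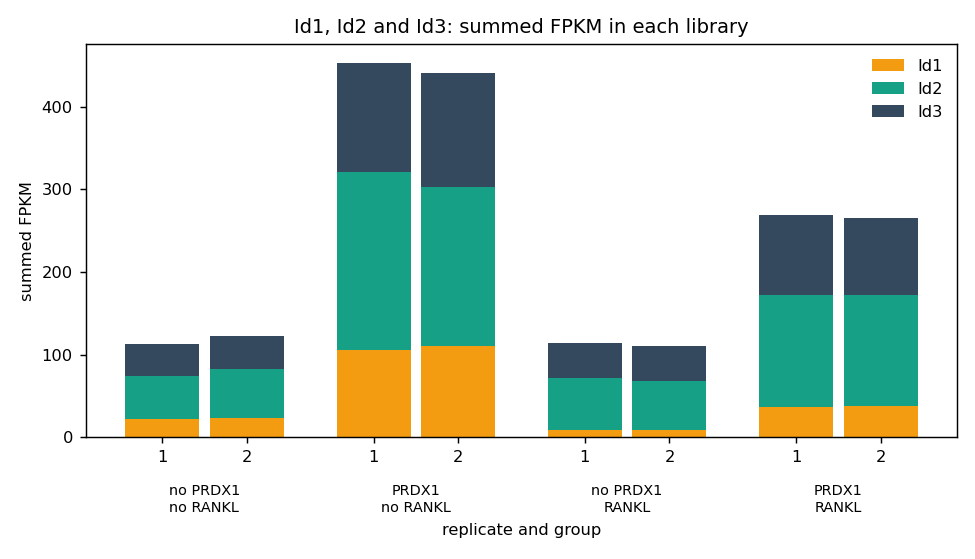
Stacked bars of the FPKM of Id1, Id2 and Id3 (y axis, summed FPKM) in each of the 8 libraries (x axis, replicate and group). Untreated and RANKL libraries reach 110 to 122 FPKM, with a smaller Id1 layer in the RANKL libraries, PRDX1 + RANKL libraries reach 266 and 269, and PRDX1 + no RANKL libraries 440.5 and 453.

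Irf8 (chr8:120736358-120756692, plus strand, 9 exons) was the member most lowered by RANKL in cells without PRDX1. It stood at 47.8 and 50.3 FPKM in no PRDX1 + no RANKL, 59.5 and 59.4 in PRDX1 + no RANKL, 7.77 and 7.72 in no PRDX1 + RANKL, and 23.9 and 25.4 in PRDX1 + RANKL. No 2 groups overlapped, and the replicates lay close together beside the distance between groups. RANKL lowered Irf8 with a fold change of 0.175 on the FPKM + 1 scale (log2 fold change -2.52 ± 0.06, adjusted p = 2.66e-10), rank 44 from the bottom among 11700 genes. In the presence of PRDX1, RANKL lowered it with a fold change of 0.424 on that scale (-1.24 ± 0.06, adjusted p = 1.59e-07). PRDX1 raised Irf8 2.93-fold in cells with RANKL (1.55 ± 0.06, adjusted p = 2.72e-08). Without RANKL its 1.21-fold higher level had an adjusted p of 0.00462 but fell short of the fold threshold. Cells with both agents stayed below untreated cells, with a fold change of 0.513 on that scale (-0.96 ± 0.06, adjusted p = 4.30e-07).

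Bcl6 (chr16:23965050-23988852, minus strand, 10 exons) was the least abundant member in no PRDX1 + no RANKL, PRDX1 + no RANKL and PRDX1 + RANKL. It stood at 8.38 and 10.9 FPKM in no PRDX1 + no RANKL, 13.3 and 12.9 in PRDX1 + no RANKL, 7.33 and 8.62 in no PRDX1 + RANKL, and 12.2 and 13.1 in PRDX1 + RANKL. The 2 groups without PRDX1 overlapped, as did the 2 groups with it, and every PRDX1 culture was above every culture without. In cells with RANKL, PRDX1 raised Bcl6 1.52-fold (0.61 ± 0.11, adjusted p = 0.00152), just over the fold threshold. The call was lost without replicate 1 of no PRDX1 + RANKL (0.50), without replicate 2 of PRDX1 + RANKL (0.56), and with no filter on low values (adjusted p = 0.0535). In cells without RANKL the difference was 0.42 ± 0.11 (adjusted p = 0.0182), under the fold threshold, but without replicate 2 of no PRDX1 + no RANKL it was 0.59 and called. The interaction for Bcl6 was 0.19 (95% interval -0.16 to 0.54, adjusted p = 0.437), so that the difference between these 2 effects was not called. RANKL left Bcl6 at -0.24 without PRDX1 (95% interval -0.49 to 0.01, adjusted p = 0.0894) and -0.05 with it (adjusted p = 0.768). RANKL alone was lower than PRDX1 alone by -0.65 ± 0.11 (adjusted p = 4.77e-04), which became -0.55, no longer called, without replicate 1 of no PRDX1 + RANKL. An exon of the predicted gene Gm37419 lies on the exons of Bcl6 in GENCODE M21, and reads of the 2 could not be separated.

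Zbtb7a (chr10:81136271-81151657, plus strand, 3 exons) had the smallest fold range of the members over the 8 libraries. Its levels were 20.5 and 20.2 FPKM in no PRDX1 + no RANKL, 21.6 and 23.3 in PRDX1 + no RANKL, 24.7 and 26.9 in no PRDX1 + RANKL, and 27.3 in both cultures of PRDX1 + RANKL. The 4 groups did not overlap, in an order that put all RANKL cultures above all others. RANKL cultures were 1.25-fold higher without PRDX1 (0.33 ± 0.06, adjusted p = 0.00117) and 1.21-fold higher with it (0.27 ± 0.06, adjusted p = 0.00623), both under the fold threshold. PRDX1 gave 0.14 without RANKL (95% interval -0.004 to 0.27, adjusted p = 0.136) and 0.08 with RANKL (-0.06 to 0.22, adjusted p = 0.324), intervals that hold no change of 1.5-fold. Cells with both agents were 1.33-fold above untreated cells (0.41 ± 0.06, adjusted p = 4.64e-04), also under the threshold.

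**Figure D3:**
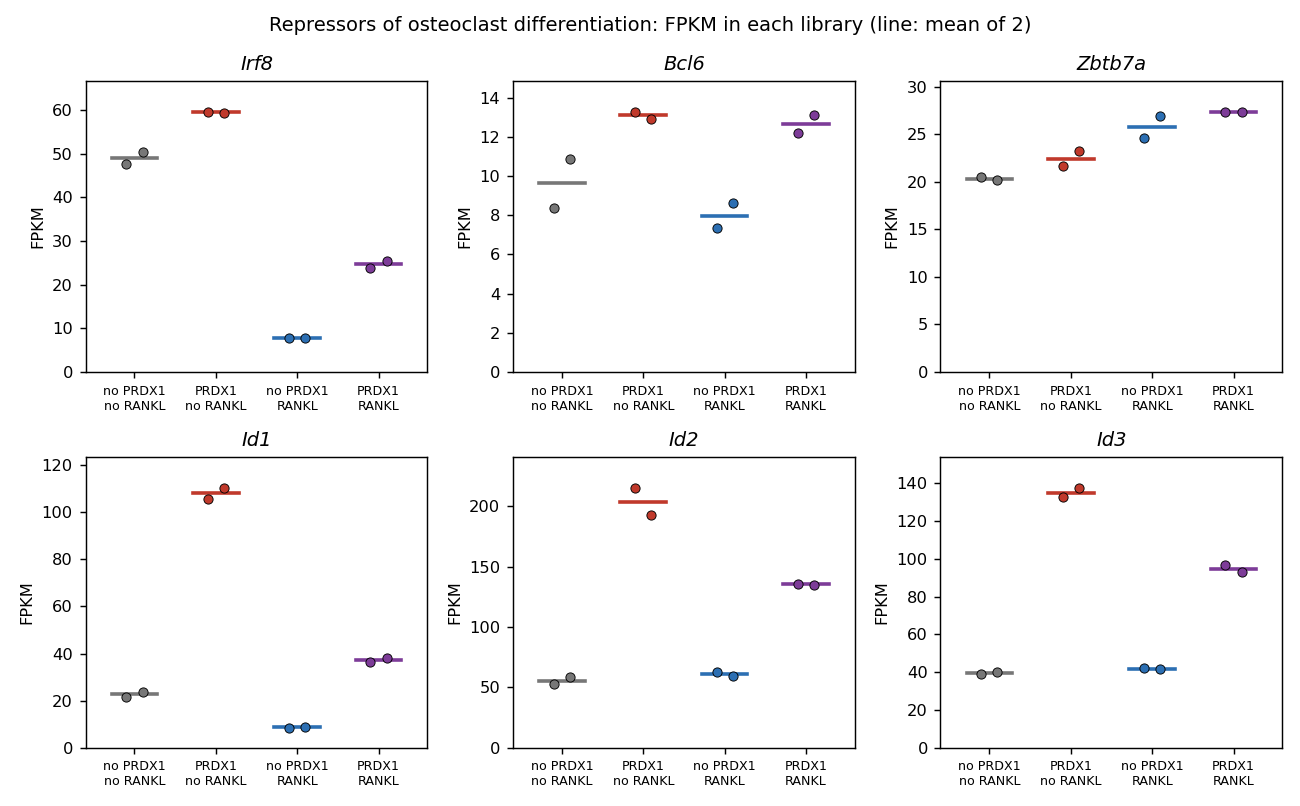
FPKM (y axis, from 0) of the 6 repressor genes in each library, by group (x axis); points are the 2 cultures and lines their mean. Irf8 is lowest with RANKL alone at 7.77 and 7.72 FPKM and between the extremes with both agents, Id1, Id2 and Id3 are highest with PRDX1 alone, and Zbtb7a spans only 20.2 to 27.3 FPKM.

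The members differed in how the 2 agents combined. For Irf8 the effect of PRDX1 was larger with RANKL than without, by an interaction of 1.28 ± 0.08 on the log2 scale (adjusted p = 3.81e-06), rank 63 from the top of all genes. For Id2 and Id3 it was smaller with RANKL, by -0.72 ± 0.09 (adjusted p = 4.64e-04) and -0.59 ± 0.07 (adjusted p = 1.71e-04). The Id3 interaction lay close to the fold threshold. It was -0.57 and not called without replicate 1 of no PRDX1 + no RANKL, without replicate 2 of PRDX1 + no RANKL, or without replicate 2 of PRDX1 + RANKL. Taken against untreated cells, cells with both agents had Id1, Id2 and Id3 higher by 0.70, 1.27 and 1.25 on the log2 scale (adjusted p = 1.14e-05, 2.46e-07 and 2.48e-08) and Irf8 lower. Cells with RANKL alone, set against cells with PRDX1 alone, had Id1 at -3.50, Irf8 at -2.79, Id2 at -1.72 and Id3 at -1.66, and Zbtb7a was at 0.19 (adjusted p = 0.0207) and not called.

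Per kilobase of transcript, Id2 ranked above 88.1% of the 11700 genes in untreated cells, Irf8 above 86.4%, Id3 above 82.8%, Id1 above 70.6%, Zbtb7a above 67.8% and Bcl6 above 46.5%. The replicates of Id2 (52.7 and 58.6 FPKM) and Irf8 (47.8 and 50.3) did not overlap there, but Id1 (21.6 and 23.6) and Zbtb7a (20.5 and 20.2) were near each other. With RANKL alone Irf8 ranked above 38.8% of genes and Id1 above 41.6%, next to Bcl6 at 39.5%; the 2 Irf8 values lay within the range of the 2 Bcl6 values. With PRDX1 alone Id2, Id3 and Id1 ranked above 97.3%, 95.9% and 94.6% of genes. The most abundant members with RANKL alone were Id2, Id3 and Zbtb7a, with Irf8 and Id1 far below their untreated levels.

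Across the 8 libraries the Id genes and Bcl6 ran alike and Zbtb7a apart from them, given as a description, since the points share libraries and 4 group means. The Pearson correlation of log2(FPKM + 1) was 0.996 between Id2 and Id3, 0.891 between Id1 and Id3, 0.886 between Id1 and Id2, and 0.857 to 0.875 between Bcl6 and the 3 Id genes. Irf8 was at 0.812 with Id1, 0.636 with Bcl6, 0.458 with Id2, 0.467 with Id3 and -0.669 with Zbtb7a. Zbtb7a was between -0.224 and 0.210 with the others. Among 2691 genes with a mean of at least 5 FPKM and groups that differed at least 1.5-fold, those most like Irf8 were Dock4 (0.999), S1pr1 (0.998) and Tmem132a (0.998). Those most like Bcl6 were Mov10 (0.994), Lgals3bp (0.975) and Shisa5 (0.968), and those most like Id1 were Plin2 (0.994), Tnfsfm13 (0.993) and Mmp13 (0.992). Id2 and Id3 were each most like the other and shared Vegfa and Scarf1 as the next, with r of 0.984 to 0.994. Zbtb7a was most like N4bp1 (0.983), Mcemp1 (0.978) and Ano6 (0.978).

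Prdm1 and Dnmt3a moved opposite to Irf8 with RANKL alone and with PRDX1 in RANKL cells, and whether these changes are linked was not tested. The products of both genes are known to lower Irf8. Of a list of 5 such genes, RANKL without PRDX1 raised Prdm1 and Dnmt3a, PRDX1 with RANKL lowered the same 2 genes, and Ezh2, Eed and Suz12, of the Polycomb complex, were called in neither comparison; the median log2 fold changes of the list were 0.48 and -0.15, where all genes had 0.10 and -0.06. Prdm1 stood at 1.02 and 1.08 FPKM in untreated cells, 1.19 and 1.03 with PRDX1, 9.18 and 9.07 with RANKL, and 1.61 and 1.81 with both. The RANKL cultures stood far above the rest, and those with both agents lay above all 4 cultures without RANKL. RANKL raised Prdm1 by 2.31 ± 0.09 (adjusted p = 1.39e-08), PRDX1 lowered it in RANKL cells by -1.91 ± 0.09 (adjusted p = 1.91e-07), and RANKL in the presence of PRDX1 gave 0.36 (adjusted p = 0.0104), not called in limma but called at 0.64 with voom on recovered reads. Against untreated cells, cells with both agents were at 0.40, not called, which became 0.65 with a pseudocount of 0.1 and 0.70 with voom, both called. The interaction was -1.95 ± 0.13 (adjusted p = 6.60e-06). Dnmt3a stood at 11.8 and 12.2, 12.3 and 11.9, 38.9 and 39.2, and 21.7 and 21.8 FPKM in the same order of groups. It was raised by RANKL (1.62 ± 0.06, adjusted p = 4.95e-09) and lowered by PRDX1 in RANKL cells (-0.82 ± 0.06, adjusted p = 2.06e-06), with an interaction of -0.83 ± 0.08 (adjusted p = 5.72e-05).

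Some of the other known repressors of the lineage were also lowered by RANKL and higher with PRDX1. Of 5 (Rbpj, Klf2, Nr4a1, Irf1 and Irf2), RANKL without PRDX1 lowered Rbpj, Klf2 and Nr4a1, and PRDX1 with RANKL raised Rbpj and Klf2; the median log2 fold changes were -0.75 and 0.37. PRDX1 without RANKL called 0 of the 5 in limma and in voom, with 4 higher and 1 lower at an unadjusted p under 0.05. Rbpj, the DNA-binding factor of Notch signaling, stood at 34.6 FPKM in both untreated cultures, 29.1 and 28.8 with PRDX1, 20.8 and 18.6 with RANKL, and 33.0 and 32.5 with both. The groups did not overlap, and cells with both agents were just under untreated cells. RANKL lowered Rbpj by a log2 fold change of -0.79 ± 0.06 (adjusted p = 2.01e-06) and PRDX1 raised it in RANKL cells by 0.71 ± 0.06 (adjusted p = 1.05e-05), with an interaction of 0.96 ± 0.09 (adjusted p = 4.25e-05). Without RANKL, PRDX1 gave -0.25 ± 0.06 (adjusted p = 0.0117), under the fold threshold. Klf2, a Krüppel-like factor, changed by -0.91 ± 0.09 with RANKL (adjusted p = 9.36e-06) and by 0.72 ± 0.09 with PRDX1 in RANKL cells (adjusted p = 1.07e-04). Nr4a1, an orphan nuclear receptor, changed by -0.75 ± 0.10 with RANKL (adjusted p = 1.19e-04).

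Nfatc1 and genes of the mature osteoclast rose with RANKL, and most of them fell when PRDX1 was added to RANKL. RANKL alone raised all 11 tested genes of a list of 12 (median log2 fold change 4.10), and PRDX1 lowered 9 of them in RANKL cells (median -2.76). Cells with both agents still had 8 of the 11 higher than untreated cells (median 1.78), and there Id1, Id2 and Id3 were higher as well. Nfatc1 stood at 9.54 and 11.1 FPKM in untreated cells, 7.64 and 7.76 with PRDX1, 50.3 and 55.4 with RANKL, and 15.6 and 15.7 with both. RANKL raised it by 2.25 ± 0.08 (adjusted p = 4.95e-09) and PRDX1 lowered it in RANKL cells by -1.69 ± 0.08 (adjusted p = 1.30e-07). On the log2(FPKM + 1) scale the largest falls with PRDX1 were those of Ctsk, the collagen-degrading protease cathepsin K (-4.19), Mmp9, a matrix metalloproteinase (-3.43), and Itgb3, the integrin beta chain of the sealing zone (-3.15). On the same scale the largest increases with RANKL were those of Mmp9 (7.81), Ctsk (7.29) and Acp5, the TRAP enzyme (5.49). Both orders depended on the scale. With voom the fall of Oscar, an immune receptor of osteoclasts, was -4.89, beyond Ctsk at -4.35, and Oscar was at -3.05 on log2(FPKM + 1). With RANKL, voom put Ctsk at 10.9, Oscar at 9.55, Mmp9 at 9.54 and Ocstamp at 7.81, above Acp5 at 5.57. Oscar had 0 and 1 reads in untreated cells, so that its value depends on the small count added to each gene. In cells without RANKL, PRDX1 raised Fos, Acp5, Dcstamp and Atp6v0d2 and lowered Itgb3. There Mmp9 was at 0.51, not called, but called in 3 alternatives at 0.62 to 1.25, and Clcn7, a chloride transporter, was at 0.58, not called, but called in 6 alternatives at 0.60 to 0.67. Nfatc1 was at -0.37 with PRDX1 in cells without RANKL (adjusted p = 0.0049), under the fold threshold. Irf8 and the 3 Id genes had their highest levels in the cultures with PRDX1 alone. Whether the members act on the genes of this list was not tested.

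**Figure D4:**
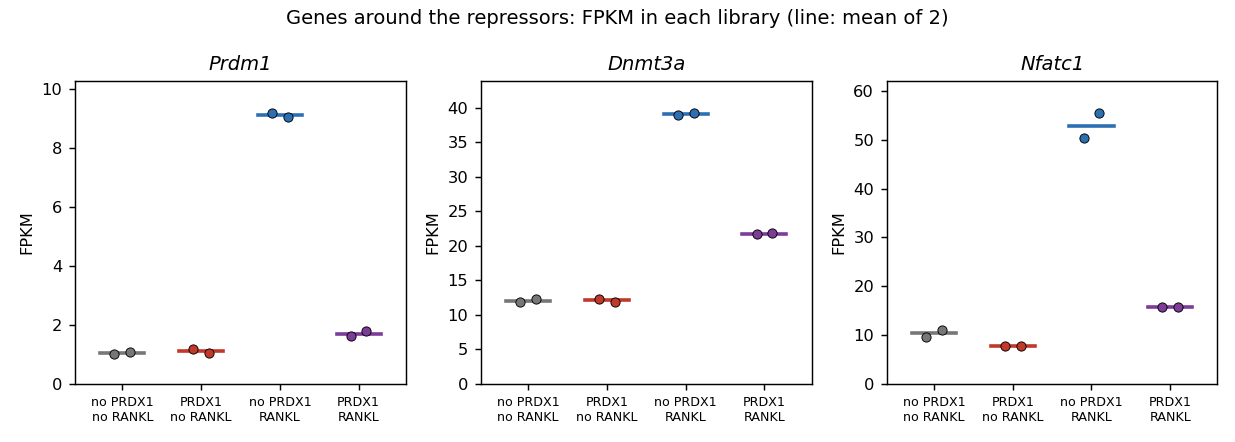
FPKM (y axis, from 0) of Prdm1, Dnmt3a and Nfatc1 in each library, by group (x axis); points are the 2 cultures and lines their mean. Prdm1, Dnmt3a and Nfatc1 are highest with RANKL alone and lower with both agents.

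Id genes are known targets of BMP receptors and SMAD1 and SMAD5. Of 23 genes of BMP and TGF-beta signaling, 17 were tested. PRDX1 without RANKL raised Smad6 and Smad7, the inhibitory SMADs that are themselves targets of the pathway, and with RANKL raised Smad6 and the receptor Acvrl1 (ALK1) and lowered the receptor Acvr2a. Smad6 stood at 1.29 FPKM in both untreated cultures, 5.40 and 5.62 with PRDX1, 1.67 and 2.19 with RANKL, and 4.62 and 4.20 with both. As for Id2 and Id3, both PRDX1 groups were above both others. Activity of the pathway, and any part of it in the changes of the Id genes, was not tested. The increases were 1.51 ± 0.10 (adjusted p = 4.93e-06) and 0.89 ± 0.10 (adjusted p = 7.64e-05). Bmp2 was at 0.30 with PRDX1 alone, not called, but at 1.26 with a pseudocount of 0.1 and 2.03 with voom, both called. In RANKL cells Eng (0.54) and Smad1 (0.53) were not called, and each was called higher in 3 alternatives, while Bmp2 (-0.29, not called) was called lower with voom at -0.59. At an unadjusted p under 0.05, 7 of the 17 were higher and 5 lower there, and 6 were higher and 2 lower without RANKL. The increase of Smad7 without RANKL, 0.73 ± 0.12 (adjusted p = 0.00163), became 0.58 and was not called without replicate 1 of no PRDX1 + no RANKL. RANKL without PRDX1 raised Bmp2, Acvr1 and Acvr2a and lowered Acvrl1, Tgfbr2, Eng and Smad1; the fall of Eng was -0.55 and not called without replicate 1 of no PRDX1 + RANKL. Acvr2a changed by 1.89 ± 0.09, Acvrl1 by -1.78 ± 0.09 and the ligand Bmp2 by 1.08 ± 0.11. The value of Bmp2 rested on 6 and 14 reads in untreated cells and depended on the scale, at 2.97 with a pseudocount of 0.1 and 4.04 with voom, where Acvr2a was at 2.34. The median of the 17 genes was 0.13 in both PRDX1 comparisons, where all genes had -0.04 and -0.06.

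The E proteins that ID proteins bind were not called in either PRDX1 comparison, in limma or in voom. At an unadjusted p under 0.05 none of the 3 moved without RANKL, and with RANKL 1 was higher and 2 lower. RANKL lowered Tcf4 (-0.68 ± 0.07, adjusted p = 2.64e-05) and raised Tcf12 (0.62 ± 0.08, adjusted p = 7.24e-05). Tcf12 was at 0.51 and not called without replicate 1 of no PRDX1 + RANKL, at 0.54 after quantile normalization and at 0.56 after upper quartile scaling. Tcf3 stood at 13.6 and 15.5 FPKM in untreated cells, 13.3 and 13.8 with PRDX1, 17.8 and 19.1 with RANKL and 15.8 and 15.6 with both, and was not called.

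Of the partners of IRF8, RANKL raised Spi1, which encodes the myeloid factor PU.1 (0.84 ± 0.07, adjusted p = 3.86e-06), and lowered Batf3, a factor of dendritic cells (-0.91 ± 0.17, adjusted p = 0.00102). PRDX1 called 0 of 5 partners with RANKL in limma and in voom, with 3 higher and 1 lower at an unadjusted p under 0.05. Batf3, at 0.41 there, was called at 0.84 (adjusted p = 0.0396) with a pseudocount of 0.1. Of 7 tested genes that IRF8 is known to activate in macrophages, Cybb, the catalytic subunit of the phagocyte oxidase, and Ctsc, the protease cathepsin C, fell with RANKL and rose with PRDX1 in RANKL cells. Cybb stood at 194 and 191 FPKM in untreated cells, 195 and 204 with PRDX1, 91.2 and 83.9 with RANKL, and 164 and 170 with both. Its changes were -1.13 ± 0.05 (adjusted p = 3.91e-08) and 0.92 ± 0.05 (adjusted p = 5.69e-07). Ctsc changed by -0.95 ± 0.04 (adjusted p = 3.59e-08) and 0.83 ± 0.04 (adjusted p = 3.41e-07). Klf4, a transcription factor of monocytes, rose with RANKL (1.57 ± 0.09), unlike Irf8. The median of the 7 was -0.38 with RANKL and 0.22 with PRDX1 in RANKL cells.

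Genes that BCL6 represses in lymphocytes gave no common direction. Of 7 tested, PRDX1 in RANKL cells raised Ccl3 (1.88 ± 0.07), Ccnd2 (1.22 ± 0.09) and Cxcl10 (1.19 ± 0.15) and lowered Prdm1. RANKL raised Prdm1 and Cxcl10 (2.65 ± 0.15) and lowered Ccnd2 (-2.89 ± 0.09) and Ccl3 (-2.75 ± 0.07). Of 12 corepressors and deacetylases that BCL6 and ZBTB7A recruit, PRDX1 in RANKL cells raised Hdac7 (0.64 ± 0.09, adjusted p = 4.22e-04). RANKL raised Bcor and Hdac2 and lowered Hdac7 (-0.63 ± 0.09, adjusted p = 2.30e-04). Without replicate 1 of no PRDX1 + no RANKL, Hdac7 was at -0.56 and not called. The rise of Bcor (0.62 ± 0.09) was not called without replicate 2 of no PRDX1 + RANKL (0.52) and that of Hdac2 not without replicate 1 (0.50), and neither was called under quantile or upper quartile scaling. Of the close relatives of the members, Irf4, Irf5 and Zbtb7b were tested, and in the 4 comparisons that change 1 agent 0 were called in limma. Irf4 was called lower with RANKL alone by voom (-0.79) and with a pseudocount of 0.1 (-0.69), and Irf5 higher with PRDX1 in RANKL cells after quantile normalization (0.60). At an unadjusted p under 0.05 2 were higher in each PRDX1 comparison, and 3 and 2 lower in the RANKL comparisons without and with PRDX1.

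Marker sums of several other cell types were higher with PRDX1, as the Id genes were. The 6 stromal and osteoblast markers summed to 8.49 to 11.2 FPKM in untreated cells, 17.4 to 17.9 with PRDX1, 8.56 to 10.3 with RANKL, and 17.1 to 20.5 with both, of which Col1a1 and Col1a2 made up the most. The 6 granulocyte markers summed to 4.37 to 7.06, 21.45 to 22.0, 9.86 to 10.8 and 21.7 (both libraries) FPKM in the same order, and the 4 endothelial markers to 1.82, 3.03 to 3.06, 3.57 to 3.91 and 5.16 to 5.55. The granulocyte sum was carried by S100a8, at means of 4.15, 17.2, 8.89 and 17.5 FPKM, and the other 5 reached at most 1.74 each in a library. The endothelial sum was carried by Kdr, at means of 1.07, 2.03, 3.44 and 4.77 FPKM, while Cdh5 and Pecam1 reached at most 0.594 and 0.583 FPKM and Tek had 0 to 2 reads in a library. The 6 dendritic cell markers, whose cells express Irf8 and Id2, summed to 1.36 to 1.47, 3.38 to 3.89, 2.36 to 2.52 and 4.59 to 5.76 FPKM. Of these Ccr7 was raised by PRDX1 without RANKL (0.91 ± 0.11, adjusted p = 2.03e-04) and with it (0.99 ± 0.11, adjusted p = 6.22e-05). RANKL alone raised Ccr7 as well (0.665 ± 0.11, adjusted p = 4.66e-04). Siglech was raised by PRDX1 without RANKL (0.668 ± 0.11, adjusted p = 0.00167) but not called with it (0.51, adjusted p = 0.00478). Ccr7 and Siglech carried the sum, and none of the other dendritic cell markers exceeded 0.629 FPKM in a library. The 5 B cell markers, whose cells express Bcl6, summed to 0.589 to 0.976, 1.59 to 2.13, 0.631 to 0.922 and 1.37 to 1.61 FPKM, and the 5 T and NK cell markers to at most 0.177, with Cd3e at 0 in all libraries. Of these lists, 5, 4, 1, 2, 0 and 0 genes passed the filter on low values. The part of these cells in the changes of the members was not tested. With RANKL alone the osteoclast marker sum rose, while the macrophage sum and Irf8 fell. The macrophage sum was 15718 to 17485 FPKM in untreated cells and 9857 to 10278 with RANKL. It was 13421 to 13821 with both agents, where Irf8 was also higher than with RANKL alone. Cell makeup and expression per cell cannot be told apart in these changes.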

How the data were processed

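RNA-seq libraries of 8 cultures in 4 groups were used, grouped by the sample labels. The authors aligned reads to mm10 with HISAT2 and counted them with HOMER on the exons of RefSeq genes, on both strands and with 1 transcript per gene, and deposited the counts as FPKM for 25124 genes. Overlapping genes can therefore share reads. The table held 0 other columns of per-sample values. Multiplying FPKM by length and scaling to 1 read gave whole numbers, within a tolerance of 0.2, for 100% of the genes checked, so that reads were recovered (24542578 to 41712973 on genes). Floors cover counting error only.

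The main fit was a limma model (version 3.58.1, R 4.3.3) with 1 coefficient per group and a trend on log2(FPKM + 1), over 11700 genes whose FPKM averaged 0.5 or more. A count model was left to the alternatives, as voom on the recovered reads, because the deposited unit is FPKM. Calls needed a Benjamini-Hochberg adjusted p-value under 0.05 over all genes and a fold change of at least 1.5, in 6 pairwise comparisons and the interaction. The other alternatives were a pseudocount of 0.1, no filter or a mean of at least 1, quantile normalization, upper quartile scaling, only the 2 groups compared, a replicate block, and leaving out each library. The steps were tested on simulated data.

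The members, 10 pathway lists of 85 genes (71 tested) and 8 marker lists were chosen with earlier results of these data known. Named in the text are the 6 members. From each pathway list, up to 3 genes with the largest change were named among those called with PRDX1 in RANKL cells and up to 3 among those called with RANKL alone, with Prdm1, Nfatc1 and Id4, and for each member the 3 genes with the highest correlation; genes named beyond these were chosen after their values were seen. List medians and counts are descriptions, since no test of the lists was run. Some genes of these lists are not reported here.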

Additional observations from a re-analysis of the deposited data

Results flagged for a closer look

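For 3 members the effect of PRDX1 differed between cells with and without RANKL by the interaction term of the limma model. The log2 difference (effect with RANKL minus effect without) was 1.28 for Irf8, -0.72 for Id2 and -0.59 for Id3. Groups of 2 cultures are too small for a search for outlying libraries.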

How the results depend on the processing

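Over the 15 or 16 alternatives of each comparison, the number of members called stayed within 1.5 times its value. Of 666 member results under alternatives, 650 kept their direction and their side of the threshold, 13 lost a call, 1 gained a call and 2 turned direction. The turned results were not called in any case: the RANKL effect on Bcl6 with PRDX1 ranged from -0.10 to 0.0035 when 1 library was left out (0.0035 without replicate 1 of PRDX1 + RANKL), and the interaction of Zbtb7a from -0.11 to 0.0068 (0.0068 without replicate 2 of no PRDX1 + RANKL). The losses were those of Bcl6 (PRDX1 with RANKL, and RANKL alone against PRDX1 alone), of Id2 (RANKL with PRDX1, also -0.55 after quantile normalization and -0.57 with voom) and of the Id3 interaction (also -0.54 after quantile normalization and -0.58 after upper quartile scaling). They fell short of the fold threshold with an adjusted p still under 0.05, except that of Bcl6 with no filter (adjusted p = 0.0535). Among 2629 results of called pathway genes, 2579 kept their call, 50 lost it and 0 turned. Calls gained under alternatives by pathway genes not called otherwise numbered 92, over 38 pairs of gene and comparison. Same-numbered replicates deviated together only weakly, with correlations of 0.008 to 0.096 between groups, so the numbers were not taken to pair the cultures. With the replicate block, the members called numbered 3 with PRDX1 alone, 5 with PRDX1 in RANKL cells, 2 with RANKL alone and 3 with RANKL on top of PRDX1, as without it. With 2 cultures a group, a difference under the fold threshold, such as those of Zbtb7a, is known only within its interval.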
